A study of Arabidopsis thaliana with 12 samples.

Results

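Transcript levels of 5 genes of thiol redox control and ascorbate synthesis were described in wild-type Arabidopsis thaliana of the Landsberg ecotype kept for 48 h in blue light of 20 µE or 200 µE. Each gene has 1 probe of the array that is annotated to it and to no other gene. The 5 genes were chosen with earlier results of these data known. They were 5 of the 691 genes that the annotation gives a separate probe, and no probe listing several genes named any of them. The genes were sulfiredoxin (SRX, AT1G31170), the NADPH-dependent thioredoxin reductase C (NTRC, AT2G41680), peroxiredoxin IIE (here PRXIIE, AT3G52960), the catalytic subunit of ferredoxin-thioredoxin reductase (here FTRB, AT2G04700) and galactonolactone dehydrogenase (GLDH, AT3G47930). Total RNA was measured in 6 samples at each intensity, numbered 1 to 6 in both groups, and µE is the usual shorthand for a photon flux. The labels name no mutant, transgene or other treatment in either group, and give neither the tissue, the age of the plants nor the number of plants per sample. Nothing in them shows that the samples are separate plants, so that the p-values measure only the spread between these samples, which may be partly technical. The comparison asked how these transcripts differed between bright and dim blue light.

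Plants in light form hydrogen peroxide in the chloroplast, and cysteine-based enzymes and ascorbate both serve to remove it. Peroxiredoxins reduce peroxides with a reactive cysteine, and sulfiredoxin repairs peroxiredoxins whose cysteine has become over-oxidised. Electrons reach chloroplast thiols by separate routes: ferredoxin-thioredoxin reductase passes them from photosynthetic ferredoxin to thioredoxins, and NTRC, a reductase with a thioredoxin domain of its own, takes them from NADPH and can work in the dark. Ascorbate is made in the mitochondrion by galactonolactone dehydrogenase, the enzyme of the final step, and serves ascorbate peroxidases as their reductant.

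The deposited values are linear intensities in arbitrary units, and their level and spread differed between the groups. Column medians were 0.401 to 0.574 units at 20 µE and 0.171 to 0.218 units at 200 µE, and values listed at 0 made up 12.4 to 14.3% and 16.5 to 18.3% of the columns. Changes are therefore given as 200 µE minus 20 µE on a log2 scale after quantile normalisation, which gives all columns the same distribution, and beside that after median centring and with no normalisation. The median change of the 691 genes was 0 after quantile normalisation, -0.14 under median centring and -1.50 without normalisation. Within a group, neighbouring columns (replicates 1 and 2, then 3 and 4, then 5 and 6) departed jointly from the group mean. Every test was therefore repeated on the averages of these 3 couples per group, which also give the means ± SD printed below. The words rose and fell are kept for genes that passed limma's test (adjusted p under 0.05) across the 12 columns and on couple averages and kept their sign under the 3 scalings. Neither of these fits was blocked by replicate number. Unless couple averages are named, the SEs in the text come from fits that took columns singly. Fits that left out columns or a couple also took the remaining columns singly. Such errors and p-values do not allow for the likeness of neighbouring columns. Of 8 genes set as markers of green tissue 4 had a probe of their own, with group means between 1.54 (PSBY) and 68.0 (PSBW) units, and none of the 13 root, seed and senescence markers had one, so that other tissues were not assessed here. The number of arrays limits the precision.

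All 5 genes passed over the 12 columns, where 49.5% of the 1561 annotated features did: 3 were lower at 200 µE (26.3% of the features) and 2 were higher (23.1%). By the stricter rule, which 17.6% of the features met, SRX fell and FTRB rose, beside 10.2% of features that fell and 7.37% that rose. PRXIIE and GLDH were lower in every column at 200 µE in deposited units, where 43.5% of the features were, but missed the threshold on quantile-normalised couple averages. The call of NTRC was lost when any 1 couple was left out of both groups. On quantile-normalised couple averages 20.6% of features passed. After median centring all 5 genes passed on couple averages (limma, adjusted p between 0.00098 and 0.021), as did 53.3% of the features. Without normalisation SRX (adjusted p = 0.00021), PRXIIE (0.0012) and GLDH (0.00057) passed there as lower, beside 62.3% of the features, and FTRB and NTRC did not (0.18 and 0.91). Blocked by replicate number across 12 columns, 4 of the 5 genes and 54.2% of the features passed. In a fit of the couple averages blocked by couple, none of the 5 genes passed (limma, adjusted p between 0.060 and 0.35), against 15.5% of the features. In that fit 116 features listed at 0 in all 12 columns entered the shared estimate of the spread, and without them SRX (adjusted p = 0.0498), FTRB (0.040) and GLDH (0.041) passed, beside 27.2% of the remaining features.

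**Figure D1:**
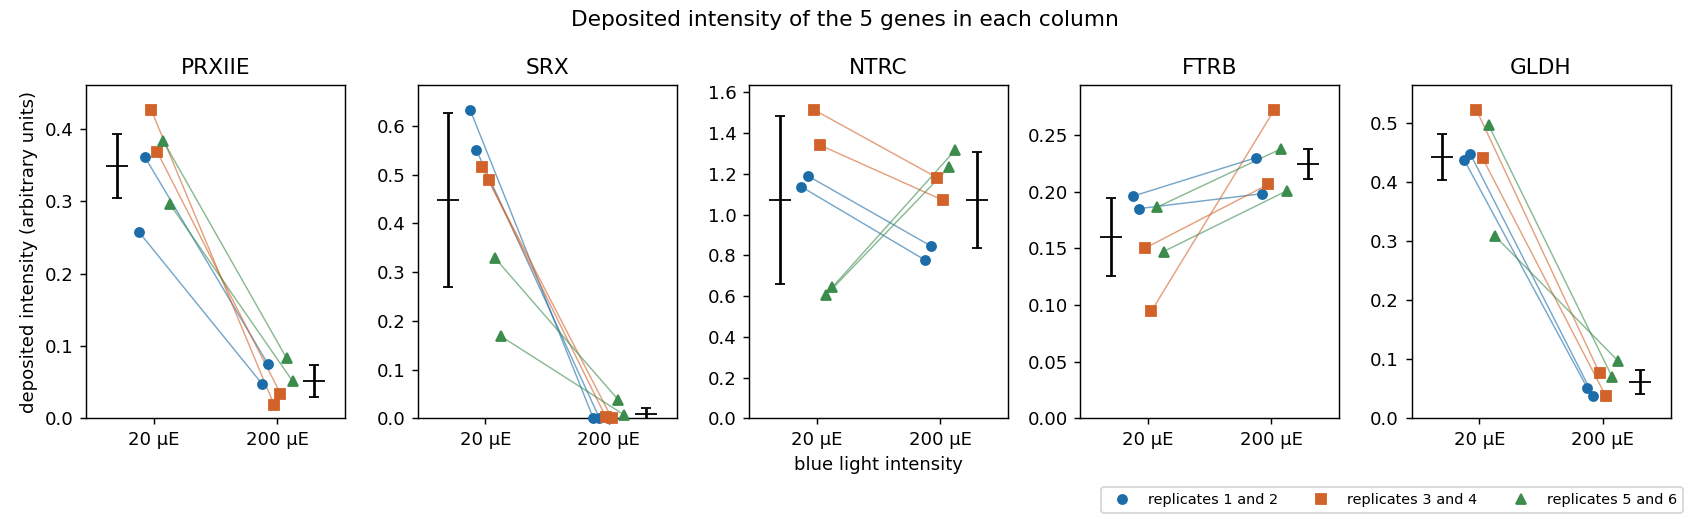
Deposited intensity (vertical axis, arbitrary units, from 0) of the 5 genes in each of the 12 columns at 20 µE and 200 µE of blue light, with lines joining columns of the same replicate number, colours and symbols marking the couples, and black bars giving the mean ± SD of 3 couple means. PRXIIE, SRX and GLDH lie lower at 200 µE in every column, FTRB lies slightly higher, and NTRC falls along 4 lines and climbs along those of replicates 5 and 6.

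SRX and PRXIIE lay lower in every column at 200 µE than in any at 20 µE in deposited units, as did 43.5% of all features. Only SRX of these met the stricter rule. SRX, the repair enzyme of over-oxidised peroxiredoxins, measured between 0.168 and 0.634 units at 20 µE, with a median of 0.502. At 200 µE it was listed at 0 in 3 of the 6 columns, with a median of 0.0016 units and a highest value of 0.038 units in column 5. The groups did not overlap in deposited units, as was the case in either direction for 48.4% of all features.

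The mean of SRX was 0.448 ± 0.178 units at 20 µE and 0.0081 ± 0.0127 units at 200 µE (SD, n = 3 couples). Its transcript fell by 3.53 on the normalised log2 scale, with an SE of 0.53 across 12 columns and 0.71 on couple averages. Limma gave adjusted p of 0.00029 and 0.035 in these fits, and SRX was lower in 6 of 6 same-numbered pairs. Because 4 of the 6 columns at 200 µE lay at or under the floor set for low values, the size of this fall depends on that floor, and no fold is given: the log2 change was -5.51 with no normalisation, -4.15 after median centring, and -2.12 where a pseudocount replaced the floor. Both SEs and both p-values also rest partly on these floored values, which are equal after normalisation and carry no measured spread.

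The couples differed in the level of SRX. Columns 1 to 4 at 200 µE all took the floor value, so that their differences from 20 µE are bounds and are not set against those of columns 5 and 6. Columns 5 and 6 held both the lowest values of SRX at 20 µE (0.330 and 0.168 units) and the highest at 200 µE (0.038 and 0.0069 units). Without columns 5 and 6 of both groups the 200 µE samples had no spread, every value being the floor, so that no error or p is given for that comparison. When the first couple or the second was left out instead, the change was -3.00 and -3.14 (limma, adjusted p = 0.020 and 0.021). These fits took the remaining columns singly, with floored values among the 200 µE samples in either case. Blocked by couple, the fit of couple averages gave an adjusted p of 0.10.

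PRXIIE, a plastid peroxiredoxin of the type II class, measured between 0.258 and 0.427 units at 20 µE, with a median of 0.365, and between 0.018 and 0.083 units at 200 µE, with a median of 0.049. The deposited values of the groups did not overlap, and within each same-numbered pair the value at 200 µE was between 0.041 and 0.216 of that at 20 µE. After quantile normalisation the groups overlapped, since column 1 at 20 µE (-3.06 on the log2 scale) lay below columns 2 and 5 at 200 µE (-3.00 and -2.55).

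The mean of PRXIIE was 0.349 ± 0.045 units at 20 µE and 0.051 ± 0.022 units at 200 µE (SD, n = 3 couples). On the normalised log2 scale its change was -0.95, with an SE of 0.27 across 12 columns and 0.33 on couple averages. Limma gave an adjusted p of 0.014 across 12 columns and 0.11 on couple averages. The change was negative under each scaling: it was -1.56 under median centring (adjusted p = 0.021 on couple averages) and -2.92 without normalisation (0.0012), where the median gene had -1.50. Columns 3 and 4 carried much of it: their same-numbered pairs differed by -1.92 and -1.05, and those of the other columns by -0.89 to -0.51. Without columns 3 and 4 of both groups the change was -0.68 ± 0.32 (adjusted p = 0.14). Of the 691 genes, 21.9% had a lower change than PRXIIE after quantile normalisation and 15.3% without it.

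**Figure D2:**
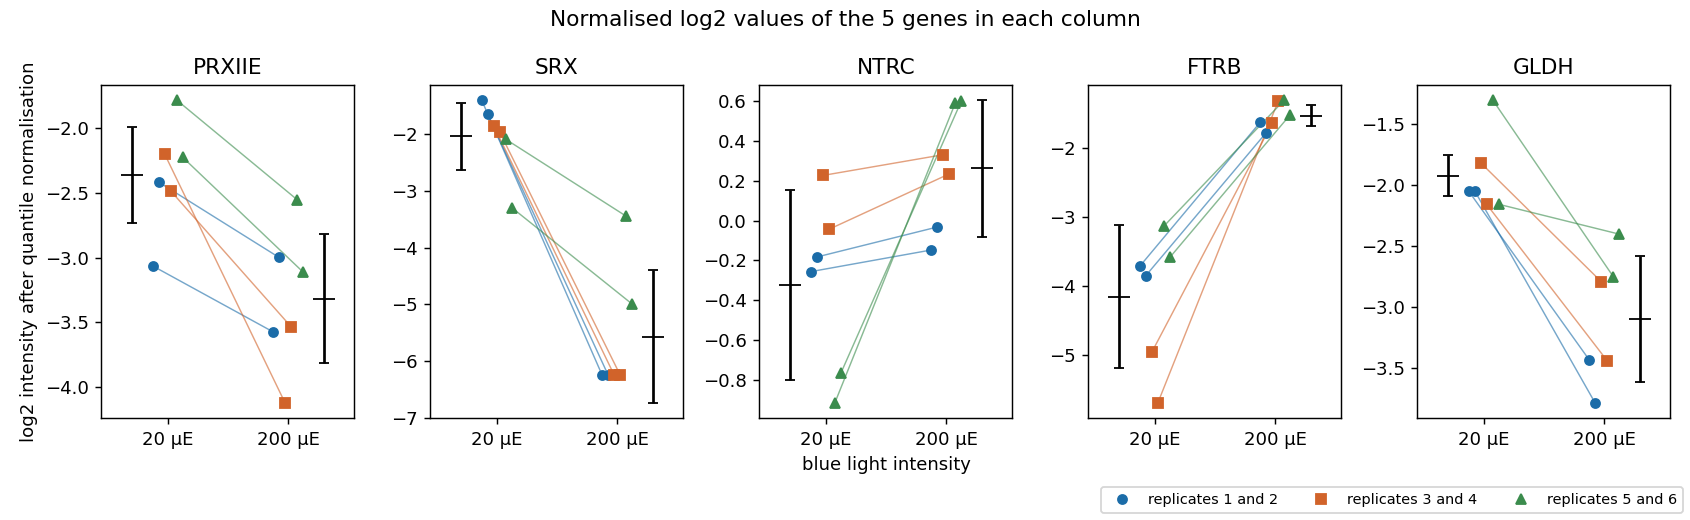
Log2 intensity after quantile normalisation (vertical axis, a scale of its own for each gene) in the 12 columns at 20 µE and 200 µE, with lines joining columns of the same replicate number, colours and symbols marking the couples, and black bars giving the mean ± SD of 3 couple means. SRX reaches the value shared by all floored entries (-6.24) in 4 columns at 200 µE, FTRB shows the widest spread at 20 µE, and the groups of PRXIIE and NTRC overlap.

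The changes of FTRB and NTRC, reductases that supply chloroplast thiols, differed in size between scalings. Those of FTRB were positive under each scaling, and that of NTRC was near 0 without normalisation (0.057 ± 0.259 SE). FTRB, the subunit of ferredoxin-thioredoxin reductase that carries the active site, measured between 0.094 and 0.196 units at 20 µE, with a median of 0.168, and between 0.198 and 0.272 units at 200 µE, with a median of 0.218. The groups did not overlap in deposited units, although the highest column at 20 µE and the lowest at 200 µE lay close together (0.196 and 0.198). Of all features, 4.87% lay higher in every column at 200 µE than in any at 20 µE in deposited units.

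The mean of FTRB was 0.160 ± 0.035 units at 20 µE and 0.224 ± 0.013 units at 200 µE (SD, n = 3 couples), a ratio of 1.40. Its transcript rose by 2.63 on the normalised log2 scale, with an SE of 0.39 across 12 columns and 0.57 on couple averages. Limma gave adjusted p of 0.00029 and 0.040 in these fits, and FTRB was higher in 6 of 6 same-numbered pairs. The rise was 1.88 under median centring, 1.78 with a pseudocount and 0.52 ± 0.20 without normalisation (adjusted p = 0.027 across 12 columns and 0.18 on couple averages). With no normalisation the median change over all features was -1.46. Blocked by couple, the fit of couple averages gave an adjusted p of 0.079.

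On the normalised log2 scale FTRB varied more at 20 µE than at 200 µE. Columns 3 and 4 at 20 µE lay at -4.97 and -5.71 on that scale, and the other 4 between -3.86 and -3.14, whereas the 6 columns at 200 µE spanned -1.77 to -1.30. The value of -5.71 was not floored but lay near the value shared by floored entries (-6.24). Without normalisation the log2 values spanned only -3.41 to -2.35 at 20 µE, and -2.33 to -1.88 at 200 µE, so that the spread at 20 µE was widened by the normalisation. Without columns 3 and 4 of both groups the rise was 1.98 ± 0.17 (limma, adjusted p = 0.00032), over the remaining columns taken singly. Of the 691 genes, 19 had a higher change than FTRB after quantile normalisation and 56 without it.

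NTRC, which combines a reductase and a thioredoxin in 1 protein, measured between 0.604 and 1.52 units at 20 µE, with a median of 1.16, and between 0.778 and 1.32 units at 200 µE, with a median of 1.13. The groups overlapped, and their means were 1.07 ± 0.41 units at 20 µE and 1.07 ± 0.24 units at 200 µE (SD, n = 3 couples). The couples did not move alike. In columns 1 to 4 the value at 200 µE was 0.684 to 0.798 of that at 20 µE, and in columns 5 and 6 it was 2.04 and 2.05 times as high.

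On the normalised log2 scale the change of NTRC was 0.59, with an SE of 0.21 across 12 columns and 0.32 on couple averages. Adjusted p from limma was 0.040 across 12 columns, 0.11 when blocked by replicate number and 0.25 on couple averages. Without columns 5 and 6 of both groups the change was 0.15 ± 0.14 (adjusted p = 0.43). Leaving out single columns ended the call in 8 of 12 cases, namely columns 1, 2, 5 or 6 at 20 µE and 3, 4, 5 or 6 at 200 µE (adjusted p between 0.054 and 0.083). The change was 1.41 ± 0.23 under median centring (adjusted p = 0.00014 across 12 columns and 0.015 on couple averages) and 0.057 ± 0.259 without normalisation (0.85). The column medians at 20 µE were 0.406 and 0.401 in columns 5 and 6 and 0.539 to 0.574 in columns 1 to 4, and the part of this in the difference between couples was not tested.

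**Figure D3:**
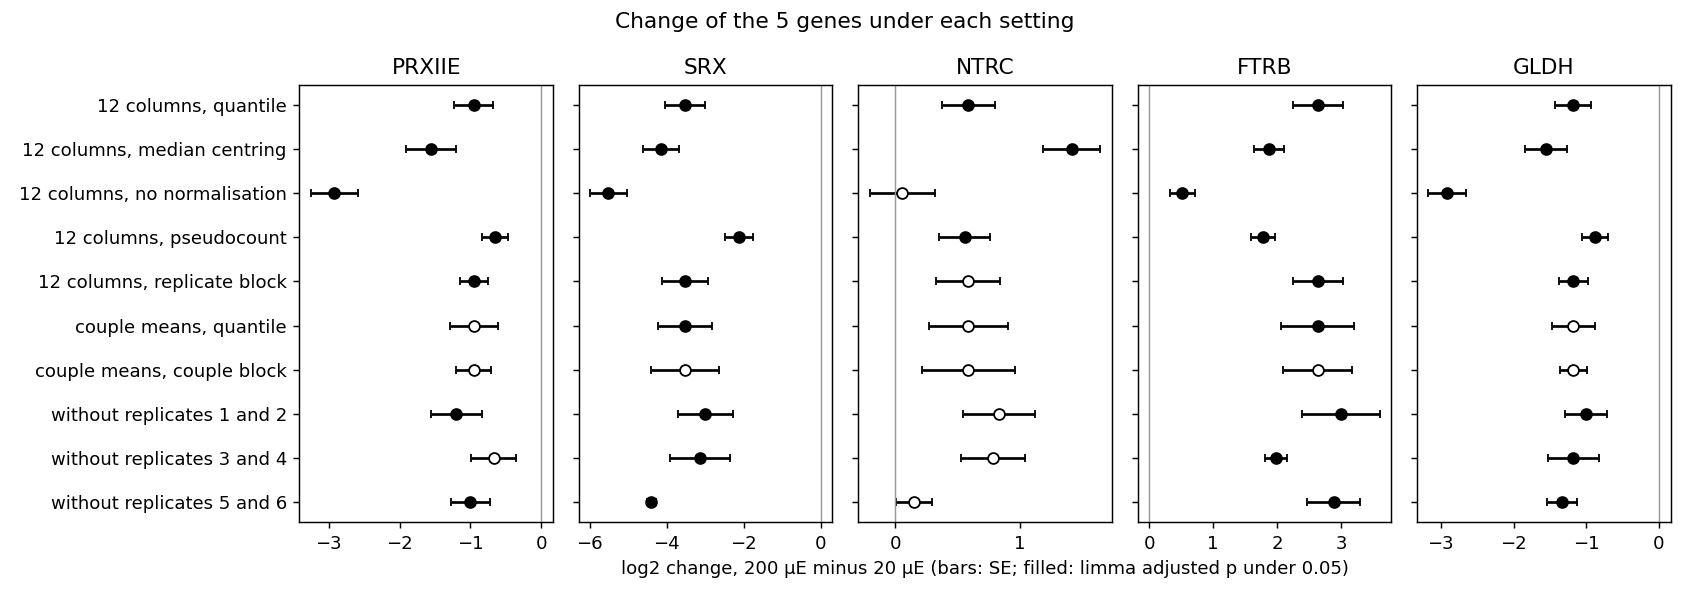
Change of each gene (horizontal axis, log2, 200 µE minus 20 µE, with a scale of its own for each gene) under 10 settings, as points with SE bars, filled where limma's adjusted p was under 0.05. The sign is the same in every row for each gene, the point of SRX without replicates 5 and 6 has floored values only at 200 µE, so that its SE is not a measured spread, and the filled points of NTRC are confined to 3 of the fits over 12 columns.

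GLDH, the mitochondrial enzyme of the final step of ascorbate synthesis, which is also needed for assembly of respiratory complex I, measured between 0.309 and 0.523 units at 20 µE, with a median of 0.445. At 200 µE it measured between 0.038 and 0.097 units, with a median of 0.061. The groups did not overlap in deposited units or after quantile normalisation, as was the case for 48.4% and 32.7% of all features.

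The mean of GLDH was 0.443 ± 0.040 units at 20 µE and 0.062 ± 0.020 units at 200 µE (SD, n = 3 couples). It was 7.17 times lower in deposited units, in which the column medians were also lower at 200 µE. On the normalised log2 scale the change was -1.18, with an SE of 0.25 across 12 columns and 0.29 on couple averages. Adjusted p from limma was 0.0025 across 12 columns and 0.053 on couple averages. It was 0.041 on couple averages without the features at 0 in all columns. GLDH was lower at 200 µE in 6 of 6 same-numbered pairs, with differences from -1.74 (column 2) to -0.24 (column 6) on that scale. The change was -1.56 under median centring (adjusted p = 0.013 on couple averages) and -2.91 without normalisation (0.00057), where the median gene had -1.50. Over the remaining columns taken singly, GLDH kept its call when any 1 couple was left out of both groups. Limma's adjusted p was 0.037, 0.038 and 0.0018 for the couples in order of their numbers. Neighbouring columns counted there as separate samples. Of the 691 genes, 18.4% had a lower change after quantile normalisation.

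The 5 genes had a median change of -0.95 after quantile normalisation, -1.56 under median centring and -2.91 without normalisation, beside medians of 0, -0.14 and -1.50 over the 691 genes. In the plot of both scalings, SRX lies low, at a place set in part by the floor, and FTRB near the upper end, while PRXIIE and GLDH lie next to each other (changes of -0.95 and -1.18 with quantile normalisation and -2.92 and -2.91 without).

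**Figure D4:**
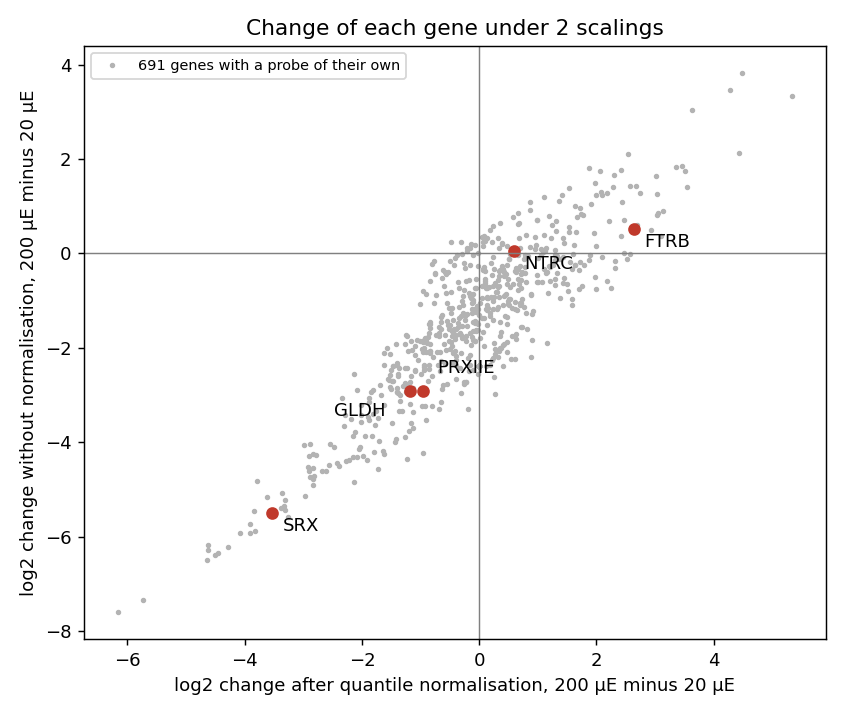
Log2 change, 200 µE minus 20 µE, after quantile normalisation (horizontal axis) and without normalisation (vertical axis) for all 691 genes that have a separate probe (grey), with the 5 redox genes in red. The cloud is shifted below 0 on the vertical axis, and FTRB and NTRC are positive on both axes (2.63 and 0.52, 0.59 and 0.057).

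Of 100 genes in 10 lists of thiol redox, ascorbate and peroxide enzymes, 8 had a probe of their own, 5 of them the genes above, and 11 more were found only on probes that list several genes. No thioredoxin, ferredoxin, ascorbate peroxidase, glutathione reductase, superoxide dismutase, catalase or glutaredoxin of the lists was measured alone. Of the 6 genes listed for thioredoxin reductases, NTRC and FTRB were measured, of the 10 for peroxiredoxins PRXIIE and SRX, and of the 9 for ascorbate synthesis GLDH.

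The other 3 measured genes encode chloroplast enzymes that thioredoxin activates in light. PRK, the phosphoribulokinase of the Calvin cycle, rose by 1.22 ± 0.20 (SE) on the normalised log2 scale (limma, adjusted p = 0.00052 across 12 columns and 0.043 on couple averages), from a mean of 0.600 to 0.761 units. The NADP-dependent malate dehydrogenase (AT5G58330), which exports reducing power from the chloroplast as malate, had means of 0.711 units at 20 µE and 0.186 units at 200 µE. Its log2 change of -0.84 ± 0.33 did not pass (adjusted p = 0.059 across 12 columns and 0.28 on couple averages). SBPASE, another Calvin cycle enzyme, was listed at 0 in 11 of 12 columns. The change of PRK was 1.68 under median centring and 0.32 without normalisation. Of these 3 genes PRK alone passed, as higher, beside 23.1% of all features across 12 columns and 7.37% by the stricter rule. SBPASE, with so many values of 0, could not be assessed.

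The genes whose normalised log2 values ran most like those of each redox gene over the 12 columns are given as a description, since the columns fall into 2 groups and 3 couples that all genes share. Candidates were genes listed at 0 in at most 2 columns, 555 for most of the 5 and 556 for SRX. Closest to SRX were AT3G32930 (Pearson r = 0.967) and AT1G31220 (0.948), and closest to FTRB were AT2G15440 (0.980) and AT2G21720 (0.975). GLDH ran most like AT2G33180 (0.915) and the MADS-box gene AGL54 (0.912), and PRXIIE most like AT2G28200 (0.906) and AT4G00870 (0.884). For NTRC the closest were AT2G37510 (0.949) and AT1G11730 (0.899). Taken as deviations from the group means, which leaves out the difference between intensities, the same pairs had r between 0.707 (GLDH and AGL54) and 0.943 (NTRC and AT2G37510).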

How the data were processed

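The deposited table holds 1 linear intensity per probe and column; how the authors labelled, background-corrected and scaled it is not given in the sources used here. All 12 columns were mapped to samples by accession, and group and number were taken from the titles. Of 3439 probes, 692 list 1 gene in the platform annotation (691 genes), 870 several, and 1877 are not listed and are unnamed here. Of the 692 identifiers 690 matched genes of the TAIR10.1 assembly. No build is named for the array, so no coordinates are given.

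Values under the 1st percentile of a column's positive values were set to that percentile, so that no positive value lay below a 0. After log2, quantile normalisation was run on all probes. Probes of a gene were averaged, and the 1561 features (691 genes and 870 shared probes) were tested with limma 3.58.1 under R 4.3.3 (lmFit and eBayes, two-sided), with Benjamini-Hochberg adjustment over all features and a threshold of 0.05. The procedure was tested on simulated data for the sign of planted changes and the recovery of the larger ones. The share of false calls was computed there too, but no limit was set on it, and it is not reported here. Deviations from the group means correlated at 0.17 to 0.552 in the 6 same-numbered pairs. The numbers were therefore used as a block in alternative fits, although no label explains them. Columns within couples correlated at 0.264 to 0.821, those between couples at -0.615 to 0.162. The fits behind the words rose and fell, over 12 columns and over couple means, have no block and leave this pairing out.

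The 5 genes and the lists were chosen with earlier results of these data known. All 5 genes, every list gene measured alone and the 2 genes most like each of the 5 were named; the marker genes PSBY and PSBW, named for their levels, were chosen after their values were seen. Alternatives were other scalings, floors and filters, the replicate number as a block, couple means, array weights, a variance trend, all probes, and leaving out columns or couples. Couple means under the other scalings were added after seeing the data. Functions of genes are background knowledge.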

Additional observations from a re-analysis of the deposited data

Results flagged for a closer look

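Among the 10 sets of 6 columns of the 5 genes, 1 had a value set off from the others. With independent columns, chance alone gives about 0.5 (1 in 20 sets). Neighbouring columns were not independent here, so that rate is only a rough guide. In column 6 at 20 µE the normalised log2 value of SRX was -3.29 (0.168 units as deposited), and the remaining 5 were -2.09 to -1.40. Without that column the change of SRX was -3.81 (limma, adjusted p = 0.00024).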

How the results depend on the processing

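None of the 5 genes changed sign under any of the alternatives run. The log2 change of SRX was -3.53 over couple means with the replicate block (adjusted p = 0.10), that of FTRB 2.63 (0.079), of GLDH -1.18 (0.060), of PRXIIE -0.95 (0.11) and of NTRC 0.59 (0.35), none past the threshold. Over couple means without a block GLDH (-1.18, adjusted p = 0.053), PRXIIE (-0.95, 0.11) and NTRC (0.59, 0.25) did not pass. Without the features at 0 in all columns, couple means gave 0.090 for PRXIIE and 0.22 for NTRC, and with the block 0.074 and 0.28. With the replicate block over 12 columns NTRC alone (0.59, adjusted p = 0.11) did not pass, where 54.2% of all features passed. NTRC also missed the threshold without normalisation (0.057, over 12 columns and over couple means) and without columns 1 and 2 (0.83), 3 and 4 (0.78) or 5 and 6 (0.15) of both groups, PRXIIE without columns 3 and 4 (-0.68), and FTRB over couple means without normalisation (0.52, adjusted p = 0.18). Over couple means all 5 genes passed after median centring, beside 53.3% of all features. Without normalisation SRX, PRXIIE and GLDH passed there as lower, beside 57.8% of all features. Leaving out each column gave -3.87 to -3.33 for SRX, 0.48 to 0.71 for NTRC, -1.12 to -0.77 for PRXIIE, 2.39 to 2.89 for FTRB and -1.29 to -1.02 for GLDH. With the filter on dim features SRX was not tested.

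Of 1561 features, 772 passed (49.5%, 361 higher and 411 lower). The count was 1179 without normalisation (113 higher, 1066 lower) and 1082 after median centring. With all probes tested it was 1663 of 3438 features (48.4%). It was 322 over couple means and 242 when these were blocked by couple (replicate block). Without the features at 0 in all columns, these couple fits gave 397 and 393 of 1445 features (27.5% and 27.2%). Leaving out each column gave 717 to 808. Why the counts differ was not tested, apart from the larger number of features where all probes were tested. Signal over background is not given with the values, so that levels near 0 are bounds.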
